A study of Mus musculus with 12 samples.

Results

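The p53 target genes described here are 34 mouse genes, named in a list of the p53 gene Trp53 itself, the genes that regulate or feed back on p53, and genes known to be switched on by it. All 34 were found by symbol among the 56691 mouse gene IDs of the deposited count tables, and together they took 0.256% of all counts. The cells were male R1 embryonic stem cells of 129/Sv background, grown on gelatin. One group was treated for 6 days with 2i, which combines a MEK inhibitor with a GSK3 inhibitor. A second group had 6 days of 2i with 25 µM of an MRE11 inhibitor, and another had 6 days of 2i with 50 µM of it; the labels do not name the compound. The cells they are set against were untreated day 0 cells in serum with LIF, which the labels call primed. Each group held 3 libraries, made from total RNA by 3′ mRNA sequencing. MRE11, a nuclease that works with RAD50 and NBN, processes DNA ends at breaks and at stalled replication forks, and the series asks what part it plays when primed cells become naive.

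p53 is a transcription factor that is made continuously and kept scarce by MDM2, a ubiquitin ligase that marks it for destruction. When DNA is broken or replication stalls, kinases such as ATM, ATR and their checkpoint partners modify p53 and free it from MDM2, and it then switches on genes that stop the cell cycle, start cell death, help repair DNA, and rebuild MDM2 itself. Because this control acts mainly on the protein, the amount of Trp53 transcript is not a measure of p53 activity, and most of its targets also answer to other transcription factors. Mouse embryonic stem cells are known for a short G1 phase and a weak G1 checkpoint, and for keeping Cdkn1a, which encodes the cell cycle inhibitor p21, at a low level. No group here lacked p53 and p53 protein was not measured, so the dependence of any of these genes on p53 was not tested.

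Library totals ran from 5894561 to 7060126 counts, and 13230 genes had enough counts to be tested. Of the 34 p53 target genes, 32 were tested. Fas, a death receptor, had 8, 14, 3 and 9 counts summed over the 3 libraries of the 2i, 25 µM, 50 µM and primed groups, and was not tested. Cd82, a membrane tetraspanin, had 3, 1, 0 and 0 counts in those groups, where a count of 0 over a group allows up to 3 counts, or 0.162 CPM, the counts per 1000000 scaled for library size, in the 50 µM group and 0.16 CPM in the primed group. Levels below are CPM, given for replicates 1, 2 and 3 in that order, and differences are log2 fold changes with their standard error. A gene was called where the Benjamini-Hochberg adjusted p of edgeR's quasi-likelihood test, taken over all tested genes, was below 0.05. Whether replicates were separate cultures is not stated in the labels, and the p-values therefore speak only to the spread among these libraries, which may be technical. In every group replicate 1 stood apart: chi-square per degree of freedom was 9.38 to 12.7 between it and the other two, and 2.58 to 6.98 between replicates 2 and 3. Calls of p53 target genes that were gained or lost without replicate 1 of all groups are therefore also given.

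Markers of embryonic stem cells, 8 genes including Sox2 and Nanog, summed to 4690 to 4910 CPM in 2i, 4700 to 4870 at 25 µM, 4460 to 5060 at 50 µM and 4100 to 4720 in primed libraries, so as a sum the markers of the labelled cell type were present in every group. Within the list DESeq2 called Nanog and Esrrb higher, and Tdgf1 and Dppa4 lower, in 2i than in primed cells. Markers of fibroblasts, 8 genes, summed to 12.7 to 18 CPM in 2i, 5.96 to 7.16 at 25 µM, 1.94 to 3.08 at 50 µM and 30.8 to 73.5 in primed libraries. Those with 0 counts were Dcn, Lum and Postn in primed libraries, Col3a1 and Lum in 2i, Col3a1 and Dcn at 25 µM, and Dcn, Lum and Postn at 50 µM. The 3 fibroblast markers with enough counts to be tested were Col1a1, Col1a2 and Thy1. All 3 were called lower in 2i than in primed cells (median log2 fold change -1.83), beside 20.4% of all tested genes. Trophoblast markers, 6 genes, summed to 108 to 165 CPM in 2i, 104 to 140 at 25 µM, 72.6 to 107 at 50 µM and 135 to 164 in primed libraries. Neural markers, also 6 genes, summed to 75.5 to 97.4, 90 to 90.7, 85.1 to 106 and 113 to 121 CPM in those groups, and 6 endoderm markers summed to 6.76 to 8.25, 5.82 to 6.74, 4.03 to 4.69 and 5.55 to 14.5 CPM. The part of these other cell types in the results below was not tested. In RNA from a whole culture, fewer cells of a type and less RNA per cell cannot be told apart.

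p53 binds a pair of 10-base half-sites. The RefSeq promoter windows of build GRCm38.p6, which run from 250 bases before to 50 after a gene's start in the C57BL/6J reference and not in the 129 genome of these cells, were available for 26 of the 34 genes. An exact p53 half-site, which reads the same on both strands, lay in a window of 12 of these 26 (46.2%), against 9.55% of 27025 genes with a window. Some genes have more than 1 window. Counted by window it lay in 13 of 42 (31.0%), against 8.36% of all 32851 windows. An exact pair up to 13 bases apart was found for 1 of 26 (Cdkn1a, 3.85%), against 0.074% of all genes. A looser search, added after the first was seen, took 2 adjacent half-sites with up to 2 mismatches, keeping the C and the G that bound the core of each half-site. It found 4 of 26 (15.4%), against 0.392% of all genes, and their 4 sites are printed because all belong to the feedback and cell cycle genes that open the results; capitals mark the pair, and each sequence is 5′ to 3′ on the gene's strand.
Cdkn1a, chr17:29090888-29090978 (+): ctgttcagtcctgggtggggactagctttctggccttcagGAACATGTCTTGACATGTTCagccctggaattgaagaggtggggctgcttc
Ccng1, chr11:40755422-40755521 (-): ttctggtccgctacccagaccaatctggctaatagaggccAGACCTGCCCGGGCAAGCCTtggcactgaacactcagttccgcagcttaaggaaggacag
Ckap2, chr8:22185963-22186062 (-): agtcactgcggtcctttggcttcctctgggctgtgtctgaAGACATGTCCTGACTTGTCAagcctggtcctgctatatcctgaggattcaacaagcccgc
Gtse1, chr15:85859905-85859964 (+): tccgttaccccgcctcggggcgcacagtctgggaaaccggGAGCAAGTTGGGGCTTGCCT
The first base of the pair lay at -51 for Cdkn1a, -195 for Ccng1, -203 for Ckap2 and -1 for Gtse1, counted from the RefSeq start. The exact pair of Cdkn1a, which the capitals do not mark, began at -73. The Cdkn1a and Gtse1 pairs differ from the consensus at 1 base, as does that of Ccng1, and the Ckap2 pair at 2. A match is a description of these letters, not evidence that p53 is bound there. The genes were listed as known p53 targets, so their shares beside all genes are not a test of that.

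After 6 days of 2i, 14 of the 32 tested p53 target genes were higher than in primed cells and 2 were lower. The called share, 50% of the members, stands beside 40.4% of all tested genes, and by direction 20% of all genes were called higher and 20.4% lower. The median log2 fold change was 0.16 over the members and -0.01 over all genes. The genes that rose include the arrest gene Cdkn1a, the p53 antagonists Mdm2 and Mdm4, and the stress gene Sesn1. Death genes went both ways: Trp53inp1, Phlda3 and Ei24 rose, and Perp and Bbc3 fell. Since no group stayed in serum with LIF until day 6, the medium change and the time in culture cannot be told apart.

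Among the regulators, Trp53 itself had 92.1, 73.2 and 82.3 CPM in 2i, against 98.7, 90.1 and 106 CPM in primed libraries. The groups overlapped through the first 2i library, and the log2 fold change of -0.25 ± 0.12 was not called (adjusted p = 0.103). Without replicate 1 of 2i it was -0.32 (adjusted p = 0.049), and without replicate 1 of all groups -0.33 (adjusted p = 0.0378). Mdm2, the ligase that degrades p53 and a textbook p53 target, had 223, 212 and 245 CPM in 2i, against 173, 163 and 171 CPM in primed libraries. All 3 of its 2i libraries lay above all primed ones, and it rose by 0.42 ± 0.09 on the log2 scale (1.34-fold, adjusted p = 0.000666). Ccng1, encoding cyclin G1, which takes part in the negative feedback on p53, had 264, 262 and 275 CPM in 2i, against 208, 208 and 219 CPM in primed libraries. Its groups were also separate, and it rose by 0.33 ± 0.08 (adjusted p = 0.00171). Mdm4, the partner of MDM2 that restrains p53's activity, rose by 0.37 ± 0.10 (adjusted p = 0.00534). Ppm1d, the phosphatase that removes activating phosphates from p53, averaged 32.1 ± 1.04 CPM in 2i and 31.1 ± 2.27 CPM in primed libraries (SD, n = 3 each), with a 95% interval of the log2 fold change from -0.19 to 0.28. So 3 of the 5 regulators were called, all higher, a share of 60% beside 40.4% of all tested genes.

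Cdkn1a, on chromosome 17 (29090976 to 29100727, plus strand, GRCm38), had the largest change of the 32. It had 239, 205 and 216 CPM in 2i, against 70.4, 50.1 and 44.1 CPM in primed libraries, means of 220 ± 17.3 and 54.9 ± 13.8 (SD, n = 3 each). The lowest 2i library lay well above the highest primed one, and the log2 fold change was 2.00 ± 0.13 (4.01-fold, adjusted p = 6.2e-10). Btg2, a brake on proliferation that acts with the CCR4-NOT deadenylase, had 44.2, 48.9 and 53.1 CPM in 2i, against 29.8, 34.6 and 36.8 CPM in primed libraries. Its groups did not overlap and it rose by 0.53 ± 0.12 (adjusted p = 0.00129). Of the other arrest and cell cycle genes, Plk2, a polo-like kinase, changed by 0.14 ± 0.19, and its primed replicate 1 stood high at 30.5 CPM beside 14.5 and 19.2. Without that library Plk2 was called higher (0.49, adjusted p = 0.0201), and likewise without replicate 1 of all groups (0.54, adjusted p = 0.0127). Gtse1, a microtubule-binding protein of G2 that also holds p53 down, changed by 0.25 ± 0.15 (adjusted p = 0.185); it was called without replicate 1 of 2i (0.41, adjusted p = 0.0212) and without the low-count filter (0.27, adjusted p = 0.0233). Ckap2, a spindle protein, changed by 0.16 ± 0.10 and was not called.

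**Figure D1:**
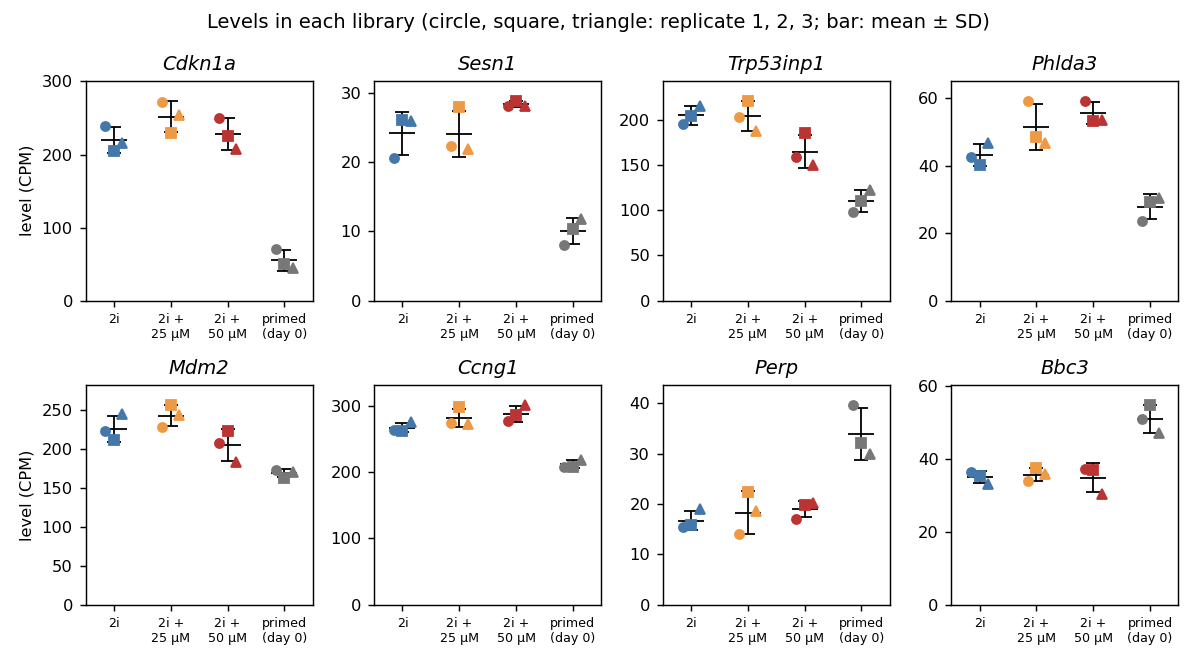
Levels in CPM (vertical axis, from 0) of 8 p53 target genes in each library of the 2i, 25 µM, 50 µM and primed groups; symbols are replicates 1 to 3 and bars the mean with its SD. Cdkn1a lies between 205 and 272 CPM in all libraries with 2i and between 44.1 and 70.4 CPM in primed libraries, while Perp and Bbc3 are the ones that lie higher in primed libraries.

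The death genes moved in both directions, 3 higher and 2 lower among the 10 tested, and their median log2 fold change was -0.06. The called share was 50%, beside 40.4% of all tested genes. Trp53inp1, a stress protein that enhances p53 activity and takes part in autophagy, had 195, 204 and 215 CPM in 2i, against 98.1, 110 and 122 CPM in primed libraries. The groups were far apart, and the log2 fold change was 0.90 ± 0.10 (adjusted p = 2.7e-07). Phlda3, which holds back the survival kinase AKT, had 42.5, 40.1 and 46.6 CPM in 2i, against 23.6, 29.3 and 30.5 CPM in primed libraries. It rose by 0.63 ± 0.12 (adjusted p = 0.00027) with no overlap. Ei24, an endoplasmic reticulum protein linked to autophagy, had 88, 107 and 111 CPM in 2i, against 60, 74.5 and 79.1 CPM in primed libraries. Replicate 1 was the lowest of both its groups, and it rose by 0.52 ± 0.11 (adjusted p = 0.000478).

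Perp, a membrane protein of desmosomes that is also linked to p53-driven death, had 15.4, 15.8 and 18.9 CPM in 2i, against 39.6, 32.1 and 29.9 CPM in primed libraries. Every 2i library lay below every primed one, and the log2 fold change was -1.03 ± 0.16 (adjusted p = 1.78e-05). Bbc3, which encodes PUMA, a protein that sets off mitochondrial cell death, had 36.4, 35.4 and 33.2 CPM in 2i, against 51, 54.8 and 47.2 CPM in primed libraries. It fell by 0.54 on the log2 scale (SE 0.11, adjusted p = 0.000379), again with separate groups. The death genes that were not called ran from -0.19 (Bax) to 0.02 (Aen). Bax, the pore-forming protein of the mitochondrial outer membrane, had 52.4, 39.6 and 22.1 CPM in 2i, against 52.2, 46.2 and 32.3 CPM in primed libraries. Replicate 3 was its lowest library in all 4 groups, the SE of its log2 fold change was 0.47, and its 95% interval ran from -1.27 to 0.89. Eda2r, a receptor for ectodysplasin A2, averaged 25.7 ± 1.79 CPM in 2i and 26.1 ± 0.713 CPM in primed libraries.

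Of the 5 genes of repair and nucleotide supply, 2 were called, both higher, a share of 40% beside 40.4% of all tested genes. Both calls depended on single libraries. Leaving out 1 library also lowered the calls over all genes, from 5346 to between 4615 and 4991. Ddb2, which finds ultraviolet damage in chromatin, averaged 8.54 ± 0.94 CPM in 2i and 5.51 ± 1.28 CPM in primed libraries and rose by 0.64 ± 0.21 (adjusted p = 0.0168). The call was lost without 2i replicate 2 (0.55, adjusted p = 0.0713), without primed replicate 3 (0.49, adjusted p = 0.0967) and without replicate 1 of all groups (0.64, adjusted p = 0.0502). Its last 300 bases lie within exons of Acp2 on the other strand, and the strand setting of the counting is not given. How reads of those bases were assigned to Ddb2 or Acp2 is therefore not known, and the counts of Ddb2 are uncertain. Polk, a DNA polymerase that copies past damage, averaged 31.9 ± 4.38 CPM in 2i and 23.8 ± 2.53 CPM in primed libraries and rose by 0.42 ± 0.13 (adjusted p = 0.0118). It was not called without 2i replicate 3 (0.31, adjusted p = 0.0934) or primed replicate 1 (0.35, adjusted p = 0.0613). Xpc and Ercc5, both of nucleotide excision repair, and Rrm2b, the p53-inducible subunit of ribonucleotide reductase, changed by 0.06 to 0.16 and were not called.

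The genes of stress, metabolism and the cell surface held 4 that rose and 3 that were not called, a called share of 57.1% beside 40.4% of all tested genes. Sesn1, a sestrin that restrains mTORC1, had 20.6, 26.1 and 26 CPM in 2i, against 8.08, 10.3 and 11.8 CPM in primed libraries. Its groups were far apart, and the log2 fold change of 1.27 ± 0.16 was the second largest of the members (2.4-fold, adjusted p = 1.3e-06). Dcxr, an enzyme that reduces L-xylulose and dicarbonyls, had 24.7, 29.5 and 28.4 CPM in 2i, against 15.2, 14.8 and 20.4 CPM in primed libraries. It rose by 0.71 ± 0.14 (adjusted p = 0.000349) with no overlap. Sulf2, an enzyme that trims sulfate groups from heparan sulfate outside the cell, had 119, 122 and 126 CPM in 2i, against 92.6, 94.1 and 94.6 CPM in primed libraries, and rose by 0.38 ± 0.08 (adjusted p = 0.000579). Epha2, a receptor tyrosine kinase for ephrins, rose by 0.37 ± 0.14 (adjusted p = 0.0371). That call did not hold without 2i replicates 2 or 3 or primed replicates 1 or 2, each left out alone (adjusted p = 0.0717, 0.103, 0.093 and 0.109), or without replicate 1 of all groups (0.0875), nor by DESeq2 (0.0554) or limma (0.0523). The RNA-binding protein gene Zmat3, the adenylate kinase gene Ak1 and the stress cytokine gene Gdf15 had log2 fold changes between 0.00 and 0.04.

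**Figure D2:**
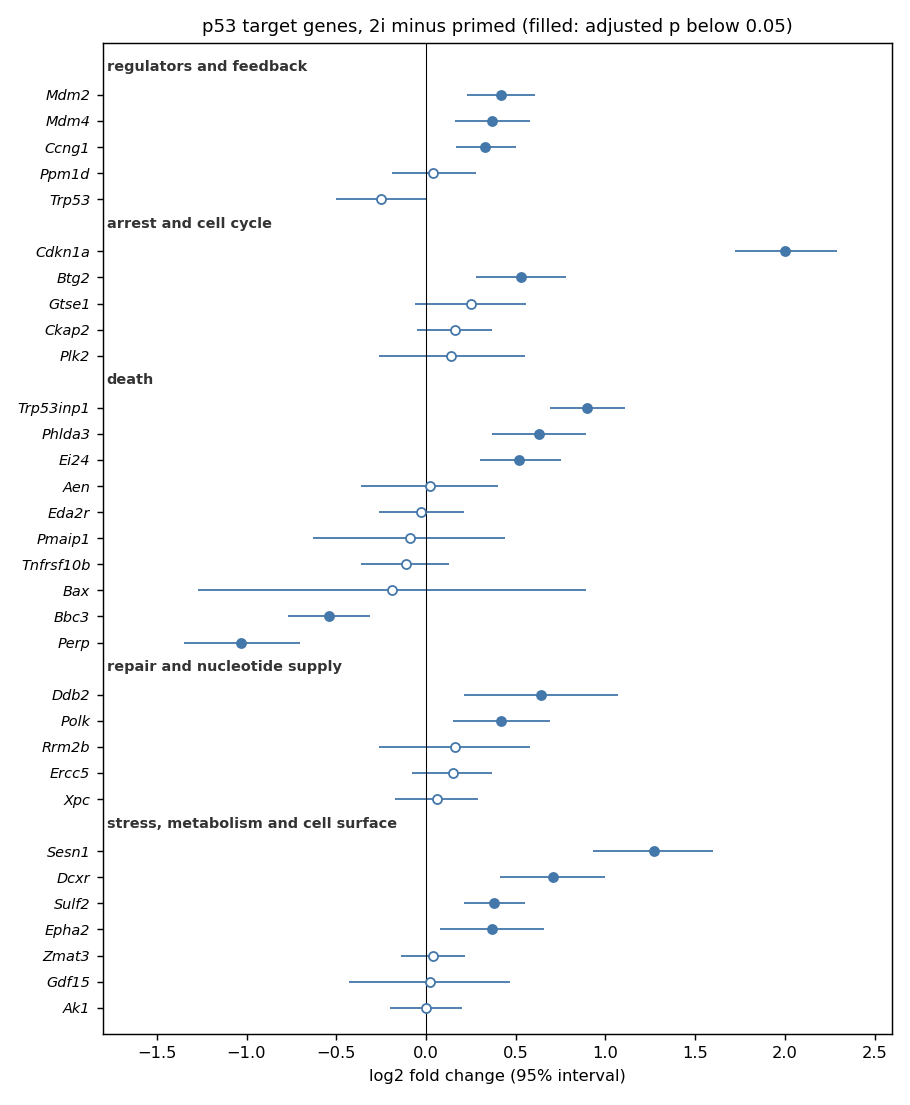
Log2 fold change, 2i minus primed, of the 32 tested p53 target genes (horizontal axis) with 95% intervals, grouped by role; filled points were called at an adjusted p below 0.05. Cdkn1a lies farthest to the right at 2.00 and Perp farthest to the left at -1.03, and the interval of Bax is the widest.

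Adding 25 µM of the inhibitor to 2i called 1 of the 32 members, Epha2, which was higher than with 2i alone. Of all tested genes 0.937% were called, 0.454% higher and 0.484% lower. At an unadjusted p below 0.05, 7 members were higher and 0 lower, against 887 and 842 of the 13230 genes, and the median was 0.14 over the members and 0 over all genes. DESeq2 also called 1 member and limma called 0, beside 161 and 101 of all genes. The 31 members that edgeR did not call ran from -0.44 (Pmaip1) to 0.58 (Aen). Same-numbered libraries of the 6-day groups deviated together, and with that number as a block (the replicate block below) 3 members were called, all higher, against 4.74% of all genes.

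With 50 µM of the inhibitor, 7 of the 32 members were called against 2i, a share of 21.9% beside 15.1% of all tested genes. Those higher were Epha2, Sulf2, Aen and Phlda3, against 7.01% of all genes, and those lower were Gdf15, Tnfrsf10b and Trp53inp1, against 8.07%. The median log2 fold change was 0.13 over the members and 0.01 over all genes, and the 25 members not called ran from -0.59 (Pmaip1) to 0.49 (Ddb2). Single libraries moved the count: it was 3, with 0 lower, without 2i replicate 2, 2 with 0 lower without 50 µM replicate 1, 4 with 1 lower without 50 µM replicate 3, and 5 with 1 lower without 2i replicate 3. Over all genes the same fits called 1217, 1368, 1432 and 1284, against 1994 of 13230 with every library. With the replicate block 6 members were higher and 5 lower, against 24.5% of all genes called in either direction. Both doses are compared with the same 2i libraries, so their calls are not independent of each other.

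Of the 5 regulators edgeR, DESeq2 and limma each called 0 at either dose, with 1, Trp53, above 2i at an unadjusted p below 0.05 at each. Over all 13230 genes, 887 were above 2i at that threshold at 25 µM and 1908 at 50 µM. Trp53 had 112, 107 and 80.7 CPM at 25 µM and 88.1, 107 and 102 CPM at 50 µM, beside 92.1, 73.2 and 82.3 CPM in 2i. The log2 fold changes were 0.28 ± 0.12 (adjusted p = 0.326) and 0.26 ± 0.12 (adjusted p = 0.146), with overlapping groups; without replicate 1 of all groups, 50 µM against 2i gave 0.40 (adjusted p = 0.0298). Mdm2 had 229, 256 and 244 CPM at 25 µM and 208, 223 and 183 CPM at 50 µM, beside 223, 212 and 245 CPM in 2i. It changed by 0.10 ± 0.09 at 25 µM and -0.14 ± 0.09 at 50 µM, and its groups overlapped at both doses. Ccng1 had 274, 298 and 273 CPM at 25 µM and 277, 286 and 301 CPM at 50 µM, and changed by 0.08 ± 0.08 and 0.11 ± 0.08. At 50 µM 3 of the 5 regulators, Ccng1, Mdm4 and Ppm1d, had all libraries above all 2i libraries, and at 25 µM 1 did, Mdm4. Of the 32 members at 50 µM, 13 lay wholly above 2i and 7 wholly below, beside 2124 and 2167 of the 13230 tested genes. At 25 µM, 8 members lay wholly above 2i and 2 wholly below, beside 1353 and 1224 of those genes.

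Cdkn1a had 272, 230 and 254 CPM at 25 µM and 250, 226 and 207 CPM at 50 µM and overlapped the 205 to 239 CPM of the 2i libraries at both doses. Its log2 fold change was 0.19 ± 0.12 at 25 µM (95% interval -0.07 to 0.45) and 0.05 ± 0.12 at 50 µM (95% interval -0.22 to 0.31). Btg2 had 50.2, 58.6 and 54.1 CPM at 25 µM and 41.8, 49.4 and 37.2 CPM at 50 µM, with log2 fold changes of 0.16 ± 0.12 and -0.18 ± 0.12 against 2i. Gtse1 had 354, 462 and 402 CPM at 25 µM and 417, 407 and 475 CPM at 50 µM, against 272, 364 and 387 CPM in 2i. All 3 libraries at 50 µM lay above all 2i libraries; the log2 fold change of 0.34 ± 0.14 was not called (adjusted p = 0.125), and it was called with the replicate block (0.36, adjusted p = 0.00244).

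Epha2 had 51, 64.1 and 41.2 CPM at 25 µM and 59.4, 54.1 and 61.7 CPM at 50 µM, against 32.9, 35.4 and 36.6 CPM in 2i. Every inhibitor library lay above every 2i library. It rose by 0.57 ± 0.13 at 25 µM (1.49-fold, adjusted p = 0.0401) and by 0.74 ± 0.13 at 50 µM (1.67-fold, adjusted p = 0.000582). The call at 25 µM did not hold without 2i replicate 1, 2 or 3 (adjusted p = 0.109, 0.121 and 0.108), without 25 µM replicate 1 or 2 (0.0871 and 0.218), or without replicate 1 of all groups (0.141). The call at 50 µM held in every alternative. Sulf2 had 140, 144 and 148 CPM at 25 µM and 161, 164 and 153 CPM at 50 µM, against 119, 122 and 126 CPM in 2i, with no overlap at either dose. It rose by 0.38 ± 0.08 at 50 µM (adjusted p = 0.00231), also in every alternative. At 25 µM its 0.24 ± 0.08 was not called (adjusted p = 0.186), and it was called with the replicate block (adjusted p = 0.0436). Of Sulf2's exons, 154 bases overlap Ncoa3 on the other strand.

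Of the 10 tested death genes, 2 rose and 2 fell at 50 µM, a called share of 40% beside 15.1% of all tested genes. Aen, a nuclease that cuts DNA during apoptosis, had 13, 11.9 and 12.5 CPM at 25 µM and 15.5, 13.7 and 11.7 CPM at 50 µM, against 7.68, 7.51 and 9.84 CPM in 2i. All inhibitor libraries lay above all 2i libraries, and it rose by 0.71 ± 0.17 at 50 µM (1.63-fold, adjusted p = 0.00826), a call lost without 50 µM replicate 1 (0.58, adjusted p = 0.0549) and without replicate 1 of all groups (0.53, adjusted p = 0.0958). At 25 µM its 0.58 ± 0.17 was called with the replicate block (adjusted p = 0.0464) and not without it (adjusted p = 0.133). Phlda3 had 59.1, 48.6 and 46.6 CPM at 25 µM and 59.2, 53.4 and 53.7 CPM at 50 µM, against 42.5, 40.1 and 46.6 CPM in 2i. Only the 50 µM libraries were separate from 2i, and the rise of 0.36 ± 0.12 (adjusted p = 0.0394) was lost without 2i replicate 1 or 2 (adjusted p = 0.111 and 0.147), without 50 µM replicate 1, 2 or 3 (0.166, 0.056 and 0.0869), without replicate 1 of all groups (0.127) and by DESeq2 (0.35, adjusted p = 0.065).

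Tnfrsf10b, the receptor for the death ligand TRAIL, had 41.6, 47.7 and 49.4 CPM at 25 µM and 38.6, 40.1 and 38 CPM at 50 µM, against 42.1, 60.7 and 52.6 CPM in 2i. The 50 µM libraries lay just below the lowest 2i library, and the log2 fold change was -0.41 ± 0.12 (adjusted p = 0.0236). That call was lost without 2i replicate 2 or 3 (adjusted p = 0.161 and 0.0677) and without 50 µM replicate 1 or 3 (0.0511 and 0.0528). Trp53inp1 had 203, 221 and 188 CPM at 25 µM and 159, 186 and 150 CPM at 50 µM, against 195, 204 and 215 CPM in 2i. It fell by 0.31 on the log2 scale at 50 µM (SE 0.10, adjusted p = 0.0396), and the call was lost without 2i replicate 2 or 3 (adjusted p = 0.0828 and 0.135) and without 50 µM replicate 1 or 3 (0.0856 and 0.109). The 3′ ends of Aen and Tnfrsf10b hold stretches at least 95.1% identical to other genes, so their counts are uncertain. Bax, with 61.3, 43.9 and 21.7 CPM at 25 µM and 54.1, 58.9 and 25.4 CPM at 50 µM, was not called at either dose. Pmaip1, which encodes the death protein NOXA, averaged 6.63 ± 2.44 CPM at 25 µM and 5.97 ± 1.20 CPM at 50 µM, against 9.09 ± 1.28 CPM in 2i; its -0.59 ± 0.27 at 50 µM was called with the replicate block only (-0.60, adjusted p = 0.0409, against 0.153 without it).

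Gdf15, a secreted cytokine of cell stress, had 5.02, 6.34 and 4.54 CPM at 25 µM and 3, 3.28 and 5.02 CPM at 50 µM, against 7.37, 7.66 and 6.29 CPM in 2i. The 50 µM libraries all lay below the 2i libraries. The log2 fold change at 50 µM was -0.91 ± 0.24 (adjusted p = 0.0124), and it was lost without 2i replicate 2 (adjusted p = 0.0509), without 50 µM replicate 1 or 2 (0.0507 and 0.0542) and without replicate 1 of all groups (0.0676). Dcxr had 25.7, 25.4 and 27.1 CPM at 25 µM and 23.1, 21.8 and 18.5 CPM at 50 µM. Its -0.38 ± 0.14 at 50 µM was not called (adjusted p = 0.0658); it was called with the replicate block (adjusted p = 0.0295), without 2i replicate 1 (-0.49, adjusted p = 0.0384) and without replicate 1 of all groups (-0.55, adjusted p = 0.023). Sesn1 had 22.4, 28 and 21.9 CPM at 25 µM and 28.2, 28.9 and 28.2 CPM at 50 µM, with log2 fold changes of -0.01 ± 0.14 and 0.23 ± 0.14, neither called. Among the repair genes 0 of 5 were called at either dose by edgeR, DESeq2 or limma. At an unadjusted p below 0.05 there were 0 at 25 µM, and at 50 µM Ddb2 was higher (0.49 ± 0.19) and Xpc (-0.29 ± 0.11) and Rrm2b (-0.50 ± 0.21) lower. Over all genes, 1908 of 13230 were higher and 1977 lower at that threshold at 50 µM. Ddb2 was called with the replicate block (adjusted p = 0.0448).

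**Figure D3:**
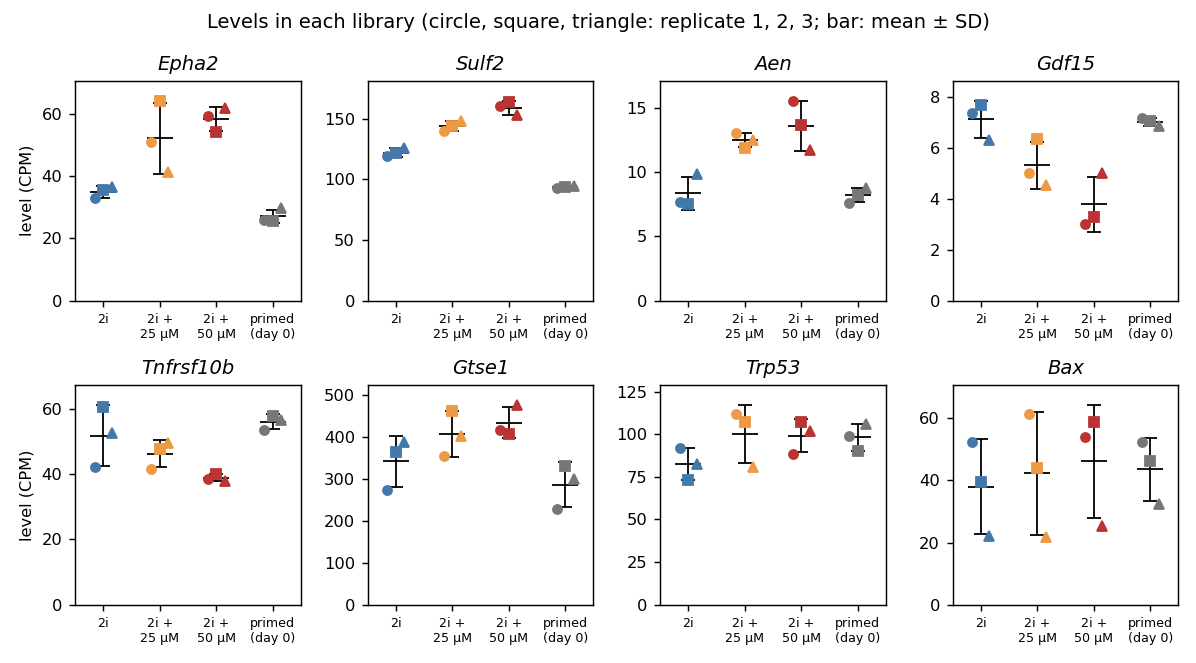
Levels in CPM (vertical axis, from 0) of 8 p53 target genes in each library of the 2i, 25 µM, 50 µM and primed groups; symbols are replicates 1 to 3 and bars the mean with its SD. Epha2 and Sulf2 lie above the 2i libraries at both doses, Gdf15 lies at 3 to 5.02 CPM at 50 µM against 6.29 to 7.66 CPM in 2i, and the triangles of replicate 3 are the lowest for Bax in every group.

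**Figure D4:**
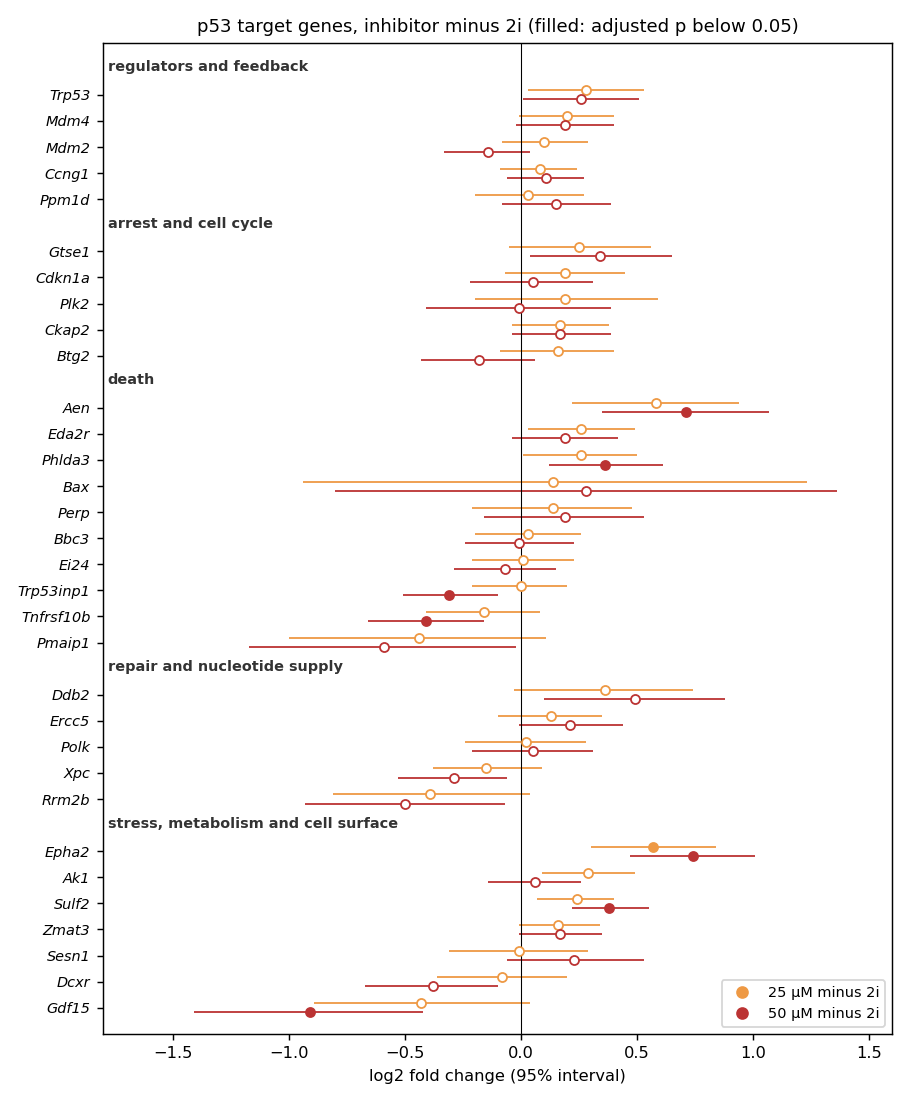
Log2 fold change of the 32 tested p53 target genes, 25 µM minus 2i and 50 µM minus 2i (horizontal axis), with 95% intervals, grouped by role; filled points were called at an adjusted p below 0.05. Filled points are Epha2 at both doses and Sulf2, Aen, Phlda3, Gdf15, Tnfrsf10b and Trp53inp1 at 50 µM only, while Cdkn1a and Mdm2 have intervals that include 0 at both doses.

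Between the doses, 0 of the 32 members were called by edgeR, and 0 by DESeq2 and by limma, beside 1.16% of all genes by edgeR (0.181% higher and 0.975% lower). At an unadjusted p below 0.05, 5 members were lower at 50 µM than at 25 µM and 0 were higher, against 975 lower and 619 higher of the 13230 genes. With the replicate block, Btg2 (-0.34, adjusted p = 0.0408) and Trp53inp1 (-0.31, adjusted p = 0.0161) were lower at 50 µM, against 4.1% of all genes called. For Epha2 the difference was 0.17 ± 0.13 (95% interval -0.10 to 0.43), for Sulf2 0.15 ± 0.08 (-0.02 to 0.31), for Aen 0.13 ± 0.16 (-0.22 to 0.47) and for Gdf15 -0.48 ± 0.25 (-1.0 to 0.03). Without the replicate block Sulf2, Aen and Gdf15 were called at 50 µM and not at 25 µM, and with it Sulf2 and Aen were called at 25 µM too; the doses themselves did not differ by the test for any of them.

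Set against primed cells, 19 members were higher and 2 lower with 2i and 25 µM, beside 42.3% of all genes called in either direction, 21.3% higher and 21% lower. With 2i and 50 µM, 17 were higher and 5 lower, beside 44.3% of all genes, 22.6% higher and 21.7% lower. These comparisons share the primed libraries with each other and with 2i against primed. Without replicate 1 of all groups, 15 members were higher and 2 lower at 25 µM, and 14 higher and 5 lower at 50 µM. Over all genes those fits called 5346 and 5538, against 5594 and 5859 with every library. In those fits Ckap2 and Polk lost their calls at both doses, Ercc5, Ak1 and Aen at 25 µM and Btg2 at 50 µM, while Plk2 was called higher at 25 µM (0.65, adjusted p = 0.00267). Cdkn1a was 2.20 ± 0.13 higher on the log2 scale at 25 µM and 2.05 ± 0.13 higher at 50 µM. Among genes not called for 2i alone, Gtse1 was higher by 0.51 ± 0.15 at 25 µM (adjusted p = 0.0102) and by 0.60 ± 0.15 at 50 µM (adjusted p = 0.00322), and Aen by 0.60 ± 0.18 (adjusted p = 0.00777; 0.055 without replicate 1 of all groups) and 0.73 ± 0.17 (adjusted p = 0.00169). At 50 µM the genes lower than in primed cells were Perp, Bbc3, Tnfrsf10b (-0.53 ± 0.12), Gdf15 (-0.89 ± 0.24) and Pmaip1. The call of Pmaip1 (-0.69 ± 0.27, adjusted p = 0.0463) was lost without primed replicate 3 (-0.38, adjusted p = 0.31) and without 50 µM replicate 1 or 3 (adjusted p = 0.14 and 0.0897). It was also lost by limma (-0.65, adjusted p = 0.0727).

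Other genes of the pathway were followed in 3 lists. Of 22 upstream kinases and modifiers of p53, 21 were tested, and in 2i against primed 4 were higher and 4 lower, a share of 38.1% beside 40.4% of all genes, with a median of 0.08. Dyrk2, a kinase that phosphorylates p53, had 12, 10.6 and 12.6 CPM in 2i, against 23.6, 22.9 and 27.4 CPM in primed libraries, and fell by 1.07 (SE 0.15, adjusted p = 4.52e-06) with no overlap. Cop1, a ubiquitin ligase that targets p53, changed by -0.40 ± 0.12 (adjusted p = 0.0134; 0.104 without 2i replicate 2). Kat5, the TIP60 acetyltransferase, changed by -0.79 ± 0.25 (adjusted p = 0.0142; 0.0844 and 0.0565 without 2i replicate 2 or 3). Crebbp, the coactivator CBP, changed by 0.35 ± 0.12 (adjusted p = 0.0291), which was lost without any one of 2i replicates 1 and 3 and primed replicates 2 and 3 (adjusted p = 0.124, 0.0673, 0.175 and 0.093). At 25 µM against 2i, edgeR called 0 of the 21, DESeq2 also 0 and limma 0, with 1 higher and 1 lower at an unadjusted p below 0.05. At 50 µM, 1 of the 21 was called higher and 1 lower than with 2i alone, a share of 9.52% beside 15.1% of all genes. Trp53bp1, which encodes the break-repair factor 53BP1, had 54.5, 71.3 and 61.8 CPM at 50 µM, against 79.1, 92.4 and 101 CPM in 2i. It fell by 0.53 (SE 0.11, adjusted p = 0.00287). The checkpoint kinase gene Chek1 had 0.31 ± 0.10 at 50 µM (adjusted p = 0.0442), and leaving out any 1 library of the 2 groups ended that call (adjusted p from 0.0505 to 0.261).

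Of 24 further p53 targets, 22 were tested, and in 2i against primed 4 were higher and 6 lower, a share of 45.5% beside 40.4% of all genes, with a median of -0.16. Gadd45a, a sensor of growth arrest and DNA damage, had 10.4, 11.3 and 11 CPM in 2i, against 65.7, 43.2 and 49.5 CPM in primed libraries. It was far lower in every 2i library, with a log2 fold change of -2.27 ± 0.15 (adjusted p = 1.1e-10). Tigar, which lowers glycolytic flux, rose by 0.88 ± 0.09, while Ddit4, the mTORC1 inhibitor REDD1, and Sfn, the checkpoint protein 14-3-3 sigma, changed by -0.76 ± 0.11 and -1.68 ± 0.19. With 50 µM, 3 of the 22 were higher and 3 lower than with 2i alone, a share of 27.3% beside 15.1% of all genes. The counts were 4 higher and 6 lower with the replicate block, 1 and 4 by DESeq2, and 3 and 2 by limma. Ddit4 had 68.9, 54.8 and 75.4 CPM at 25 µM and 35.4, 43.6 and 35.9 CPM at 50 µM, against 88.3, 91.9 and 87.6 CPM in 2i. It fell at 50 µM by 1.22 (SE 0.12, adjusted p = 6.16e-07) and was also lower at 50 µM than at 25 µM (-0.79 ± 0.12, adjusted p = 0.000932). At 25 µM against 2i, Ddit4 was not called by edgeR without the replicate block or by limma. It was called with the block (-0.42, adjusted p = 0.0112), by DESeq2 (-0.44, adjusted p = 0.0371) and without the low-count filter (-0.43, adjusted p = 0.0101). Psrc1, a spindle protein, rose by 0.46 ± 0.10 at 50 µM (adjusted p = 0.00229). It was the only one of the 22 that edgeR called without the block at 25 µM (0.40 ± 0.10, adjusted p = 0.0474), and each of the 6 libraries left out in turn ended that call (adjusted p from 0.0689 to 0.273). At that dose DESeq2, like the block, called Psrc1 higher and Ddit4 lower, and limma called 0. Tigar was lower at 50 µM (-0.30 ± 0.09, adjusted p = 0.0255), and that call was lost without 2i replicate 2 or 3 (adjusted p = 0.109 and 0.0988) and without 50 µM replicate 2 or 3 (0.085 and 0.0607).

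p21 is known to lower mitotic genes through the DREAM repressor complex, and 20 such genes were all tested. In 2i against primed, where Cdkn1a was 4.01-fold higher, 0 were higher and 3 lower, a share of 15% beside 40.4% of all genes, with a median of -0.11. DESeq2 and limma each called 4 lower, the same 3 and Top2a, beside 4928 and 5318 of all genes in either direction. The 3 were Plk1 (-0.24 ± 0.09), Bub1 (-0.27 ± 0.10) and Bub1b (-0.27 ± 0.10), and none of these calls held without primed replicate 2 (adjusted p = 0.121, 0.0613 and 0.171), 2i replicate 1 (0.164, 0.0725 and 0.196) or 2i replicate 3 (0.0611, 0.11 and 0.102); those of Bub1 and Bub1b also ended without primed replicate 3 (0.0623 and 0.0749). Mybl2, the B-MYB factor that opposes DREAM, had 145, 149 and 154 CPM at 25 µM and 181, 164 and 174 CPM at 50 µM, against 102, 93.7 and 104 CPM in 2i. The 3 groups did not overlap, and it rose by 0.58 ± 0.08 at 25 µM (adjusted p = 0.00149) and by 0.79 ± 0.08 at 50 µM (adjusted p = 2.55e-06). Foxm1, a driver of mitotic transcription, rose by 0.42 ± 0.12 at 50 µM (adjusted p = 0.025), a call lost without 2i replicate 1 or 3 (adjusted p = 0.0511 and 0.109) and without 50 µM replicate 1 or 2 (0.0852 and 0.115). Of the 20, 1 was called against 2i at 25 µM, a share of 5% beside 0.937% of all genes. At 50 µM 2 were called, 10% beside 15.1% of all genes, and at both doses 0 were lower. The median of the 20 was 0.03 at 25 µM and 0.07 at 50 µM.

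**Figure D5:**
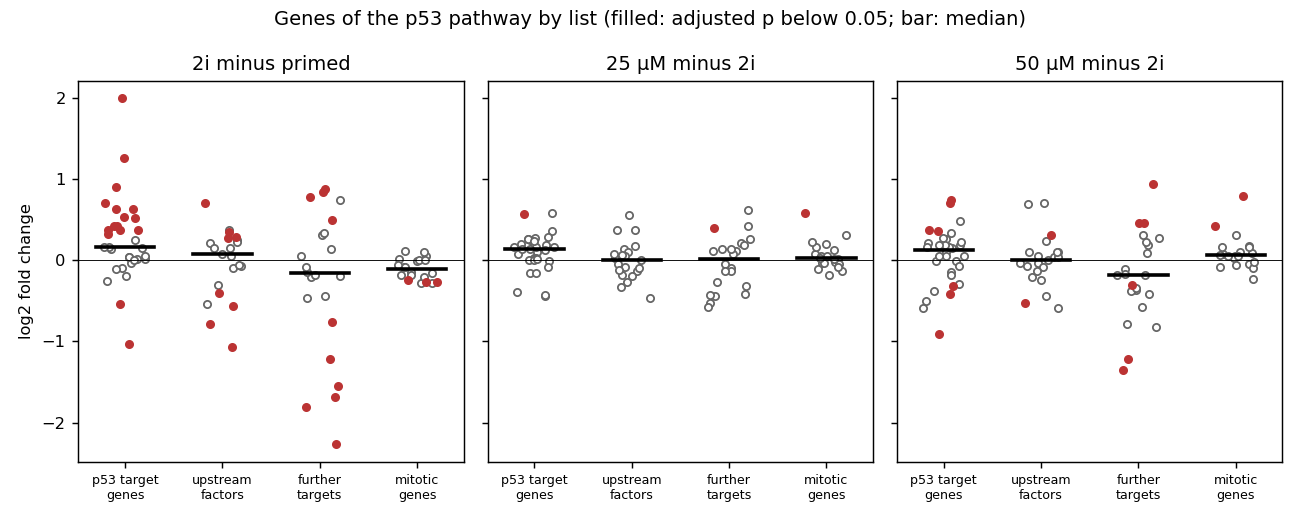
Log2 fold changes (vertical axis) of the tested genes of 4 lists in 2i minus primed, 25 µM minus 2i and 50 µM minus 2i; each point is a gene, filled where the adjusted p was below 0.05, and bars are medians. In 2i minus primed the p53 target genes have a median of 0.16 and the further targets one of -0.16.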

How the data were processed

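The values used were raw counts per gene, 1 table per library, as deposited by the authors. FastQC, STAR, DESeq2 1.32.0 and build GRCm38 are named per the submitters' processing notes; the sources used here do not give the counting tool, annotation release, strand setting or any use of molecular identifiers. 114 spike-in features with 2 counts were left out, and 52073 gene IDs had a symbol. A table of the whole series held the same 12 columns and was not used.

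Counts were fitted in R 4.3.3 with edgeR 4.0.16 (TMM, filterByExpr, robust quasi-likelihood F test, all 12 libraries in 1 fit, which was tested on simulated data), with Benjamini-Hochberg adjustment over 13230 genes. Alternatives were RLE factors, DESeq2 1.42.0, limma 3.58.1 voom, no filter, a replicate block, only the groups compared, and each library left out. Leaving out replicate 1 of all groups, the looser motif search and the check of Acp2 and Ncoa3 were added after seeing the data. Intervals are at 95% and unadjusted; floors of 3 counts cover counting error only.

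The members and lists were chosen with earlier results of these data known. Values in every library are given for Trp53, Mdm2, Cdkn1a, members called among the 6-day groups, and up to 12 members with the smallest p in 2i against primed; some others were added after their values were seen. Up to 4 genes per further list and comparison are named. A gene taken by that rule is not reported here. Promoters were to be printed for exact pairs only. Every pair marked in the printed sequences comes from the looser search, and 3 of those genes had no exact pair. Between 6-day groups, deviations of same-numbered libraries from their group means correlated at 0.155 to 0.314 (25 µM and 2i), 0.115 to 0.249 (50 µM and 2i) and 0.134 to 0.286 (50 and 25 µM), so replicate numbers were taken to pair them.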

Additional observations from a re-analysis of the deposited data

How the results depend on the processing

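Over the settings chosen at the start, 2212 of 2304 member log2 fold changes kept their call or lack of one, 65 lost a call, 27 gained one and 0 reversed. Of the members called in 2i against primed 13 of 16 were called in every one of them, of those in 50 µM against 2i 2 of 7 (Epha2 and Sulf2), and of those in 25 µM against 2i 0 of 1. With the replicate block the members called were 3 (25 µM against 2i, all 3 higher), 11 (50 µM against 2i, 5 lower), 2 (50 against 25 µM, 2 lower) and 4 lower (25 µM against primed), and all genes called were 627, 3240 and 542 in the 3 comparisons among 6-day groups. Against primed cells the replicate numbers were not taken as pairs, because the lowest same-numbered correlation of each comparison fell below the minimum set. Same-numbered correlations were 0.0908 to 0.244 (2i), 0.0115 to 0.163 (25 µM) and 0.0511 to 0.175 (50 µM). Other-numbered ones were -0.168 to 0.0636, -0.159 to 0.113 and -0.143 to 0.0578. For 2i these ranges did not overlap, as among the 6-day groups. In those comparisons 6, 3 and 5 of 6 libraries correlated best with their own number. The block called 17, 24 and 23 members beside 6294, 6543 and 6786 of 13230 genes. For 2i against primed it called 8 higher and 4 lower of the upstream genes, 7 lower of the mitotic genes, and Gtse1 (0.25, adjusted p = 0.0153).

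For 25 µM against 2i, limma, the fit of the 2 groups alone and the fit without replicate 1 of all groups each called 0 members. Without a low-count filter 268 genes were called for 25 µM against 2i and 329 for 50 against 25 µM, where leaving out replicate 1 of all groups gave 238. Leaving out 1 library gave 0 to 1 members called and 0 to 1 higher (25 µM against 2i), and 2 to 7 called, 2 to 4 higher and 0 to 4 lower (50 µM against 2i). All genes called ran from 29 to 101, from 1217 to 1668 and from 38 to 203 in the 3 comparisons among 6-day groups. Fewer libraries enter these fits; no other cause was tested. Fas and Cd82 had too few counts to be tested.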

Other observations

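Acp2 and Ncoa3 share exon bases with members. Acp2, a lysosomal phosphatase gene on the strand opposite Ddb2, changed by 0.36 ± 0.21 in 2i against primed (adjusted p = 0.177) and by -0.03 ± 0.20 in 50 µM against 2i (adjusted p = 0.942), beside 0.64 ± 0.21 and 0.49 ± 0.19 for Ddb2. Ncoa3, a nuclear receptor coactivator gene opposite Sulf2, changed by 0.09 ± 0.09 in 2i against primed (adjusted p = 0.431) and by -0.02 ± 0.09 in 50 µM against 2i (adjusted p = 0.881), beside 0.38 ± 0.08 in both comparisons for Sulf2. Both were chosen after the overlap was seen, and the differences between the genes were not tested.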
